A study of Mus musculus with 2 samples.

Results

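The nuclear genes for the respiratory chain and ATP synthase were followed through spermatogenesis in single-cell RNA. It came from testis tissue of 2 wild-type C57Bl/6J Crl mice aged 8 weeks. Members were all rows of the gene table whose symbol starts with Nduf, Uqcr, Atp5 or Cox followed by a digit, together with Sdha, Sdhb, Sdhc and Sdhd. Cox6b1, Cox6b2, Cox7b, Cox7b2, Cox8a, Cox8c and rows marked -ps were left out. The rule gave 96 of 51868 rows: 31 accessory subunits, 7 core subunits and 8 assembly factors of complex I, 4 subunits of complex II, 8 of complex III, 12 subunits and 9 assembly factors of complex IV, and 17 rows of complex V. These parts follow the symbols, so that Ndufa4 and Ndufa4l2 are counted with complex I, Cox7a2l with complex IV, and Atp5s and Atp5sl with complex V. A UMI was found for 94 members and 91 had counts high enough to be tested. Cox4i2 and Cox8b had no UMI, while Cox15, Cox6a2 and Cox7a1 had 12, 9 and 40 UMIs in all.

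The animals were untreated littermates and each gave 1 sample, so n = 2 mice throughout and no condition was compared. Tubules were cut and digested with enzymes, and the cells were strained but not sorted. By the paper, straining was also meant to keep somatic cells few. The matrix held 1237 cells and 27450497 UMIs for mouse 1 and 1315 cells and 30302332 UMIs for mouse 2, at 7114 to 154431 UMIs per cell, and no barcode occurred in both mice. The number that ends a barcode was taken as the mouse.

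Complexes I to IV pass electrons from NADH and succinate to oxygen and, except for complex II, pump protons across the inner mitochondrial membrane. Complex V, the ATP synthase, uses the resulting gradient to make ATP. Complex II is encoded in the nucleus alone, whereas the other complexes join nuclear subunits to a small set encoded by mitochondrial DNA. During spermatogenesis mitochondria change shape and move, until those that remain wrap the sperm midpiece, and the X chromosome, on which Ndufa1 and Ndufb11 lie, is transcriptionally silenced in pachytene spermatocytes.

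To compare stages without letting the members define them, cells were clustered on all other genes except further mitochondrial lists, and clusters were named by marker genes. Germ cells formed 6 clusters: early spermatocyte-like (161 cells), pachytene or later spermatocyte-like (529 cells), round spermatid-like with high Ssxb (685 cells) and with low Ssxb (450 cells), and elongating or condensing spermatid-like with a lower (195 cells) and a higher (514 cells) share of protamine and transition protein UMIs. The Ssxb-high cluster rests on 4 of 15 round spermatid markers, 3 of them Ssxb paralogs, and the other germ cell clusters on 9 to 14 of 14 or 11 of 15. Only 6 spermatogonium-like, 7 Sertoli-like and 5 Leydig-like cells were found, too few for a test. UMIs were summed per mouse and cluster, which gave 12 sums of 1091527 to 10425603 UMIs.

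The members took a smaller part of the RNA at each later stage. Their share of all UMIs was 4.02% and 3.81% in early spermatocyte-like cells of mouse 1 and mouse 2, 2.87% and 2.76% in pachytene or later cells, 2.35% and 2.07% in the Ssxb-high round cluster, 1.9% and 1.68% in the Ssxb-low round cluster, 1.34% and 1.19% in the lower-protamine cluster and 0.849% and 0.754% in the higher-protamine cluster. No value of a cluster overlapped with that of the cluster before it in either mouse. Part of this fall was shared with other genes. By library size alone, the median log2 fold change from early to later spermatocytes was -0.61 for the members and -0.25 for all genes tested. From there to round spermatids the medians were -0.49 and -0.26, and from round to elongating or condensing spermatids -1.33 and -1.14. The exact binomial 95% interval for mouse 1 in early cells, 3.98% to 4.06%, covers counting error only and did not reach the value of mouse 2. In the few somatic and spermatogonium-like cells the share was 3.59% and 3.77% for spermatogonium-like, 2.69% and 1.82% for Sertoli-like and 3.12% and 4.39% for Leydig-like cells. As UMIs per cell the order was different, since pachytene or later cells held 974 and 941 member UMIs per cell against 828 and 813 in early cells, and higher-protamine cells held 108 and 103. In a droplet library fewer transcripts per cell and poorer capture cannot be told apart.

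**Figure D1:**
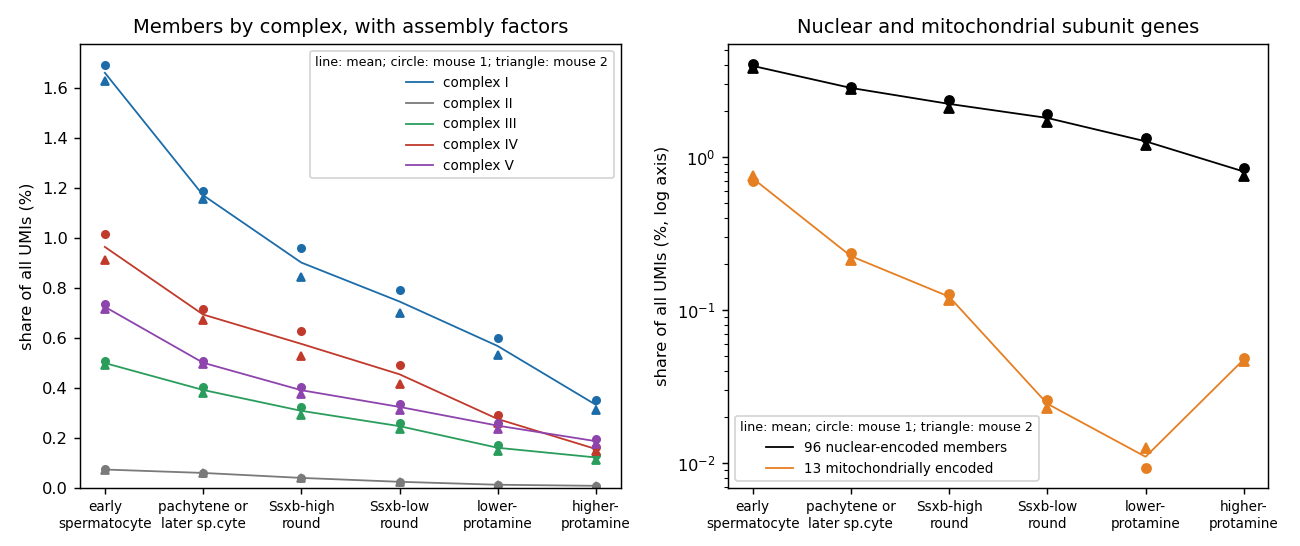
Share of all UMIs (%) by germ cell cluster. The left panel shows the members of each complex on a linear axis and the right panel all 96 members and the 13 genes encoded by mitochondrial DNA on a log axis, with circles for mouse 1, triangles for mouse 2 and lines through the means. All members together go from 3.92% in early spermatocyte-like cells to 0.801% in the higher-protamine cluster.

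The complexes did not shrink by the same factor. Complex I with its assembly factors held 1.69% and 1.63% of the UMIs in early cells and 0.351% and 0.312% in higher-protamine cells. In the same order of clusters and mice, complex II went from 0.0749% and 0.0708% to 0.00749% and 0.0079%, and complex III from 0.507% and 0.49% to 0.132% and 0.111%. Complex IV with its assembly factors went from 1.01% and 0.912% to 0.163% and 0.146%, and complex V from 0.734% and 0.713% to 0.195% and 0.177%. The values of the mice did not overlap between these 2 clusters for any complex. The 13 proteins encoded by mitochondrial DNA went from 0.695% and 0.753% in early cells over 0.0258% and 0.0231% in the Ssxb-low round cluster and 0.00938% and 0.0127% in the lower-protamine cluster to 0.0483% and 0.0468% in higher-protamine cells. The median over higher-protamine cells was only 0.0116% and 0.0124%, so that the sum there rests on a part of the cells, while the members' median share was 0.827% and 0.721%, close to their sum. The ratio of member UMIs to those UMIs was 5.79 and 5.07 in early cells, 12.1 and 12.9 in pachytene or later cells, 73.5 and 72.9 in the Ssxb-low round cluster, 142 and 93.6 in the lower-protamine cluster. The ratio of sums in the higher-protamine cluster, 17.6 and 16.1, rests on the same part of the cells.

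Cells were also placed in 12 bins of nearly equal number along diffusion pseudotime. The members held 3.62% and 3.55% of the UMIs in the first bin, 2.26% and 2.02% in the sixth and 0.804% and 0.650% in the last, and each bin lay below the one before it in both mice. The mitochondrially encoded share was lowest in bin 10 for mouse 1 (0.0133%) and in bin 9 for mouse 2 (0.0151%), and higher again in the last bins, at different positions in the 2 mice.

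**Figure D2:**
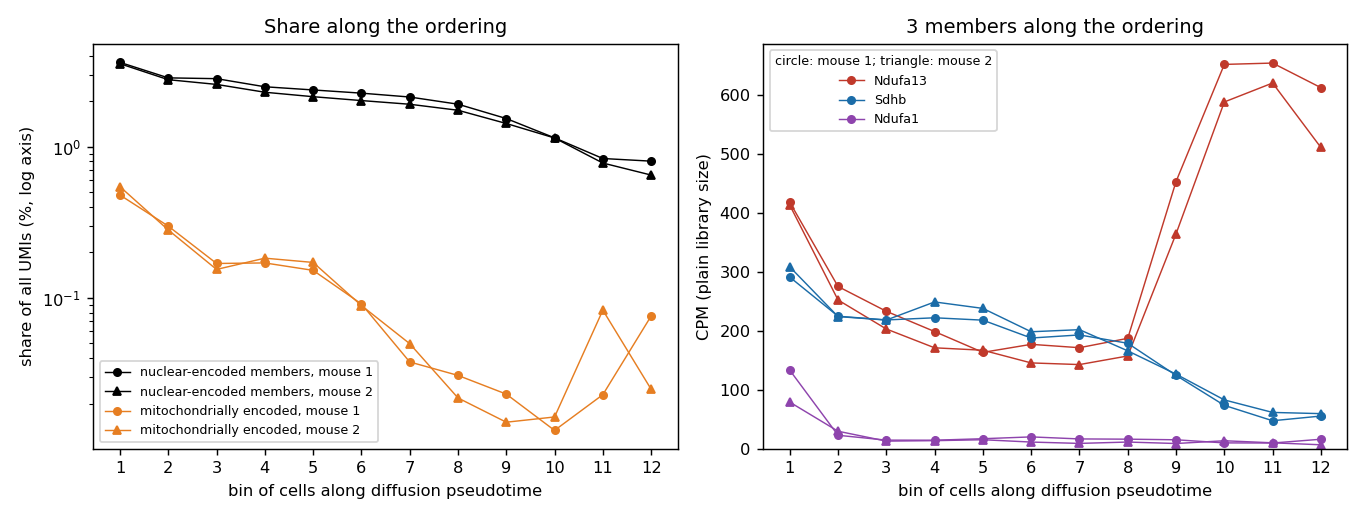
Values in 12 bins of cells along diffusion pseudotime, from early spermatocytes to condensing spermatids. Left, share of all UMIs (%, log axis) on the members and on mitochondrially encoded genes; right, CPM (UMIs scaled to a common total per library) of 3 members; circles are mouse 1 and triangles mouse 2. The summed share falls in every bin, while Ndufa13 is lowest in the middle bins and highest in bins 10 to 12.

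For each member, levels are given as TMM-scaled CPM, that is UMIs scaled to a common total with edgeR's correction for composition, in the order mouse 1 and mouse 2. Levels are compared between stages of 1 gene and not between genes. Fold changes are on the log2 scale from edgeR's quasi-likelihood test over 14203 genes, and a member was called where the adjusted p (Benjamini-Hochberg) was under 0.05. Over all 6 clusters 88 of 91 members differed, against 96.8% of all genes tested. Ndufaf5, Ndufv2 and Uqcr10 were not called. By TMM-scaled CPM 42 members had their highest level in early cells, 13 in pachytene or later cells, 9 in a round cluster and 15 in a protamine-rich cluster in both mice, and for the others the mice differed. The same count was not made over all genes, so it describes the members only, on this scale.

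**Figure D3:**
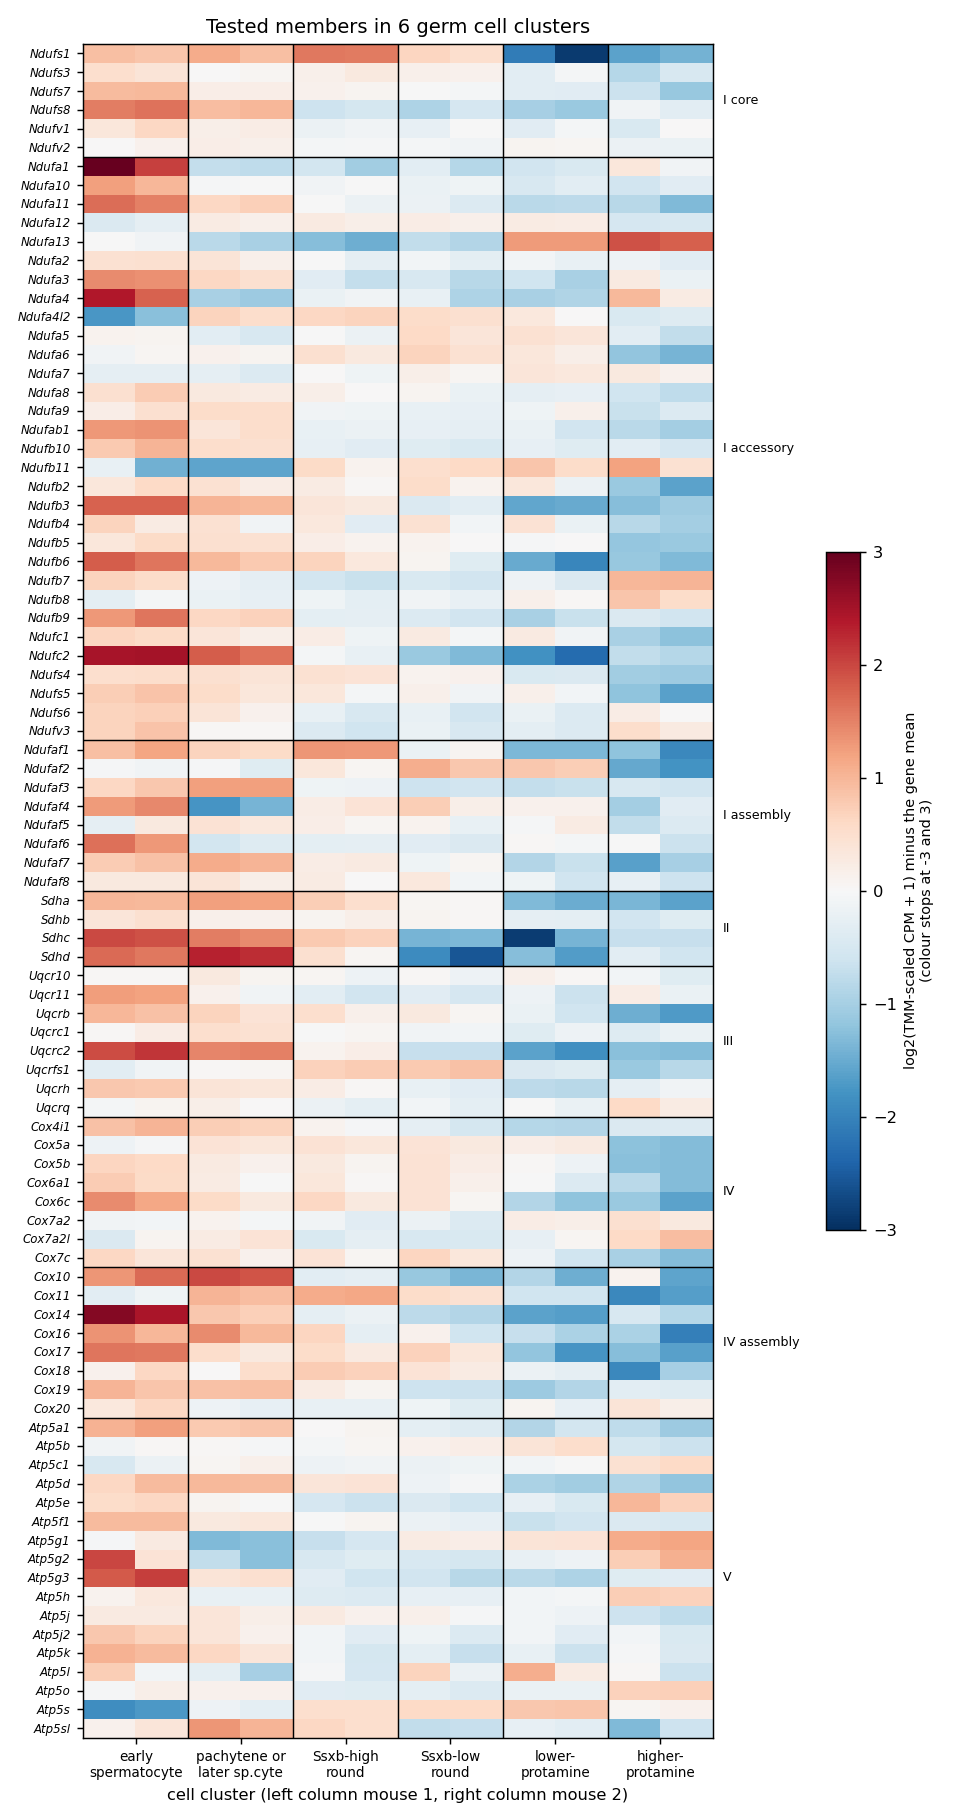
Level of the tested members, all but 1, as log2(TMM-scaled CPM + 1) minus the mean of the gene, in 12 sums (left column of each pair mouse 1, right column mouse 2). Red is above and blue below the mean of the gene. Most rows are red on the left and blue on the right. Ndufa13, Ndufb7 and Atp5g1 are instead highest, on this scale, in the higher-protamine cluster, and Ndufb7 is red in early cells too.

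The first comparison asked what changes between early and later spermatocytes. Of 91 members 12 were higher and 43 lower in pachytene or later cells, while among all genes tested 25.5% were higher and 24.8% lower, 50.3% in all. The median log2 fold change was -0.34 for the members and 0.00 for all genes. Without the early sum of mouse 2 these medians were -0.08 and 0.24, and without the pachytene or later sum of mouse 2, the early sum of mouse 1 or either sum of a round cluster the members' median was -0.27 to -0.16. Scaled by library size alone, 6 members were higher and 55 lower, against 19.9% and 31.6% of all genes, and the medians were -0.61 and -0.25. By part, 17 of 31 accessory subunits of complex I fell (Ndufa4 among them) and 2 rose (Ndufa4l2 among them), 10 of 17 complex V rows fell and 3 rose, and 4 of 8 complex III subunits fell and 1 rose. Of the 8 tested assembly factors each, 2 fell and 1 rose for complex I, and 3 fell and 1 rose for complex IV.

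The largest falls were in genes with low levels later. Ndufa1, an X-linked accessory subunit (chrX:37187588-37191163, GRCm38, minus strand), was at 174 and 87.8 in early spermatocyte-like cells, 12 and 11.6 in pachytene or later cells, 13.7 and 9.47 in the Ssxb-high round cluster, 16.2 and 10.9 in the Ssxb-low round cluster, 13.4 and 14.7 in the lower-protamine cluster and 26.4 and 18.9 in the higher-protamine cluster. Both mice were high in early cells and low in every later cluster, and no later value came near the lower early one (log2 fold change -3.43 ± 0.26 SE, adjusted p = 6.87e-10). Mouse 1 was above mouse 2 in early cells, where its 10 highest of 53 cells held 49.7% of the Ndufa1 UMIs and those of mouse 2 25.2%. Ndufa4, named as a complex I gene but found in complex IV, was at 47.6 and 30 in early spermatocyte-like cells, 3.62 and 3.32 in pachytene or later cells, 6.89 and 7.42 in the Ssxb-high round cluster, 6.84 and 3.83 in the Ssxb-low round cluster, 3.67 and 3.91 in the lower-protamine cluster and 16.8 and 9.79 in the higher-protamine cluster. Its fall between the spermatocyte clusters was of the same size (-3.43 ± 0.28 SE, adjusted p = 2.4e-09). In the 6 spermatogonium-like cells Ndufa4 had 57 UMIs, or 872 CPM (exact Poisson 95% interval 660.4 to 1130, counting error only), and was among the leading genes of the cluster although it was not used for clustering.

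Ndufaf4, an assembly factor of complex I, was at 12.2 and 13.6 in early spermatocyte-like cells, 0.591 and 1.07 in pachytene or later cells, 5.27 and 6.25 in the Ssxb-high round cluster, 7.98 and 5.11 in the Ssxb-low round cluster, 4.89 and 4.89 in the lower-protamine cluster and 1.68 and 3.26 in the higher-protamine cluster. Its level was lowest in pachytene or later cells (-3.98 ± 0.37 SE, adjusted p = 1.6e-08, and then 2.89 ± 0.33 SE, adjusted p = 7.52e-08 from there to round spermatids). Atp5g2, 1 of 3 genes for subunit c of the ATP synthase rotor, fell (log2 fold change -3.21), but with 121 UMIs in all and 12.2 and 3.4 in early cells the mice differed widely. Ndufaf6 fell (log2 fold change -4.43) on 30 UMIs. Early cells of mouse 1 also held more Sertoli marker RNA than the other germ cell sums. The 15 markers summed to 179 CPM there and to 61.3 CPM in mouse 2, with 4 and 3 of them at 0, against 26.3 to 71.6 CPM in the other germ cell clusters and 23498 and 26589 CPM in Sertoli-like cells. Ndufa1 was at 495 CPM and Ndufa4 at 436 CPM in Sertoli-like cells, and the part of such RNA in the early levels was not tested.

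Ndufa4l2, the paralog of Ndufa4, was at 23.2 and 33.4 in early spermatocyte-like cells, 128 and 117 in pachytene or later cells, 124 and 128 in the Ssxb-high round cluster, 117 and 113 in the Ssxb-low round cluster, 101 and 80.7 in the lower-protamine cluster and 58.4 and 61.3 in the higher-protamine cluster, low in early cells and high from pachytene to round spermatids (2.07 ± 0.17 SE, adjusted p = 2.2e-09). It ran against Ndufa4 in this step. Atp5s and Atp5sl, which carry the name of the ATP synthase but whose products are not subunits of its core, rose by 1.59 and 0.94. RefSeq lists them as Dmac2l and Dmac2, and both are among the 3 rows of complex V that rose in this step. Cox11, needed to insert copper into complex IV, rose by 1.21 ± 0.15 SE, adjusted p = 8.38e-07. Sdhd, a membrane anchor of complex II, rose by 0.63. The call was lost with DESeq2 (0.34), by library size alone (0.37) and thinned to 7000 UMIs per cell (0.39).

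Promoters were searched for 4 short motifs, which the rule did not use. Sequences from 250 bases before to 50 after the start site were found in RefSeq (GRCm38.p6) for 79 members. On either strand the NRF1 motif, GCGCA directly followed by TGCGC, was in 7 of them (8.86% against 1.07% of 27025 genes), the ETS motif CCGGAAG in 21 (26.6% against 9.93%), the CRE motif TGACGTCA in 4 (5.06% against 2.03%) and the YY1 motif AAGATGGCG in 10 (12.7% against 1.64%). Shown are the 120 bases before the start site of 6 named members, with the motif in capitals (in Sdhd it lies on the other strand), chosen because their levels take different courses, so that no relation of motif and level can be read from them. A match describes these letters and is not a binding site.
Ndufaf4, chr4:24897963-24898082, plus strand: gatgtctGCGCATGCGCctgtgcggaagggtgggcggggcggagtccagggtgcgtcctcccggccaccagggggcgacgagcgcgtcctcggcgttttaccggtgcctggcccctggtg
Atp5g2, chr15:102671048-102671167, minus strand: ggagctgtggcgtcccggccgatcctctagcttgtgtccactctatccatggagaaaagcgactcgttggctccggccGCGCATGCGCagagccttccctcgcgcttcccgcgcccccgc
Sdhd, chr9:50603850-50603969, minus strand: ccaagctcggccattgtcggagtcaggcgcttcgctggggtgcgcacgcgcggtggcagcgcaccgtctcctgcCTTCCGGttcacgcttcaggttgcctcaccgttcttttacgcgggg
Cox10, chr11:64079473-64079592, minus strand: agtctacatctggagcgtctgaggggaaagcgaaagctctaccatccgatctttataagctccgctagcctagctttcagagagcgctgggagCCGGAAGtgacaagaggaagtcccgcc
Ndufb7, chr8:83566638-83566757, plus strand: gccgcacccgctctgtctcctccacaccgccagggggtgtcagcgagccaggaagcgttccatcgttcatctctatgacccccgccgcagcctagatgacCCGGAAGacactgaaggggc
Atp5j, chr16:84834977-84835096, minus strand: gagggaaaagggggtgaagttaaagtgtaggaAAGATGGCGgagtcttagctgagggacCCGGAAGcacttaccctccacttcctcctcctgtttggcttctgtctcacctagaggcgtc
The first 2 hold the NRF1 motif. Both were named for being among the 5 largest falls of the first comparison, and in TMM-scaled CPM both were lowest in pachytene or later cells. Those levels rest on 8 and 11 UMIs for Ndufaf4 and 13 and 4 for Atp5g2. Cox6a1 also holds this motif and was lowest in the higher-protamine cluster. Atp5k, Ndufa11, Uqcrc1 and Ndufaf5 hold it too. In the first comparison Cox6a1 (-0.55), Atp5k (-0.50) and Ndufa11 (-0.93) were called lower and Uqcrc1 (0.34) higher. Ndufaf5 was not called over all clusters. The other 4 sequences shown hold the ETS motif. On the same scale Sdhd and Cox10 were highest in pachytene or later cells, and Ndufb7 was lowest in the Ssxb-high round cluster. Atp5j and, outside the bases shown, Cox10 also hold the YY1 motif, and the levels of Atp5j, a peripheral stalk subunit and the member of complex V with the most UMIs, were 547 and 545 in early spermatocyte-like cells, 590.0 and 516 in pachytene or later cells, 547 and 499.8 in the Ssxb-high round cluster, 503 and 445 in the Ssxb-low round cluster, 433 and 411 in the lower-protamine cluster and 297 and 267 in the higher-protamine cluster.

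The second comparison, of round spermatids with later spermatocytes, gave 11 members higher and 46 lower, while 37.3% of all genes were higher and 37.3% lower, 74.6% in all. The median log2 fold change was -0.27 against -0.04 for all genes. Without the protamine and transition protein genes the medians were -0.56 and -0.31, and 7 members were higher, against 33.2% of all genes. With those genes kept the medians moved as far with K = 10 (-0.55 and -0.31) and without doublets (-0.55 and -0.32). The shift was thus not particular to leaving out those genes. With Leiden clusters the medians were -0.05 for the members and 0.04 for all genes. Leaving out 1 pachytene or later, early or round sum put the members' median at -0.67 to -0.50. That of all genes was then -0.35 to -0.25, and the number of higher members depended on these sums. In complex II 3 of 4 subunits fell, and its membrane anchors were 2 of the 5 named members with the largest falls. Sdhd was at 55.3 and 51 in early spermatocyte-like cells, 85 and 78.9 in pachytene or later cells, 23.1 and 17 in the Ssxb-high round cluster, 3.65 and 1.92 in the Ssxb-low round cluster, 6.11 and 4.4 in the lower-protamine cluster and 12.9 and 10.4 in the higher-protamine cluster. It was high in both spermatocyte clusters and low afterwards, lowest in the Ssxb-low cluster (-3.49 ± 0.16 SE, adjusted p = 4.34e-14). Sdhc, the other membrane anchor, was at 80.3 and 75.4 in early spermatocyte-like cells, 58.7 and 53.7 in pachytene or later cells, 34.3 and 32.3 in the Ssxb-high round cluster, 6.84 and 7.03 in the Ssxb-low round cluster, 1.83 and 6.85 in the lower-protamine cluster and 11.8 and 11.7 in the higher-protamine cluster (-1.88 ± 0.15 SE, adjusted p = 2.36e-10), highest in early cells and lower in every spermatid cluster. Sdha, the flavoprotein that oxidises succinate, fell (log2 fold change -0.90). Sdhb, the iron-sulfur subunit, was not called (12 of 25 alternatives called it lower and 1 higher), with 174 and 171 in pachytene or later cells, 165 and 175 in the Ssxb-high and 164 and 159 in the Ssxb-low round cluster. The 4 subunits of this complex thus took unequal courses.

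**Figure D4:**
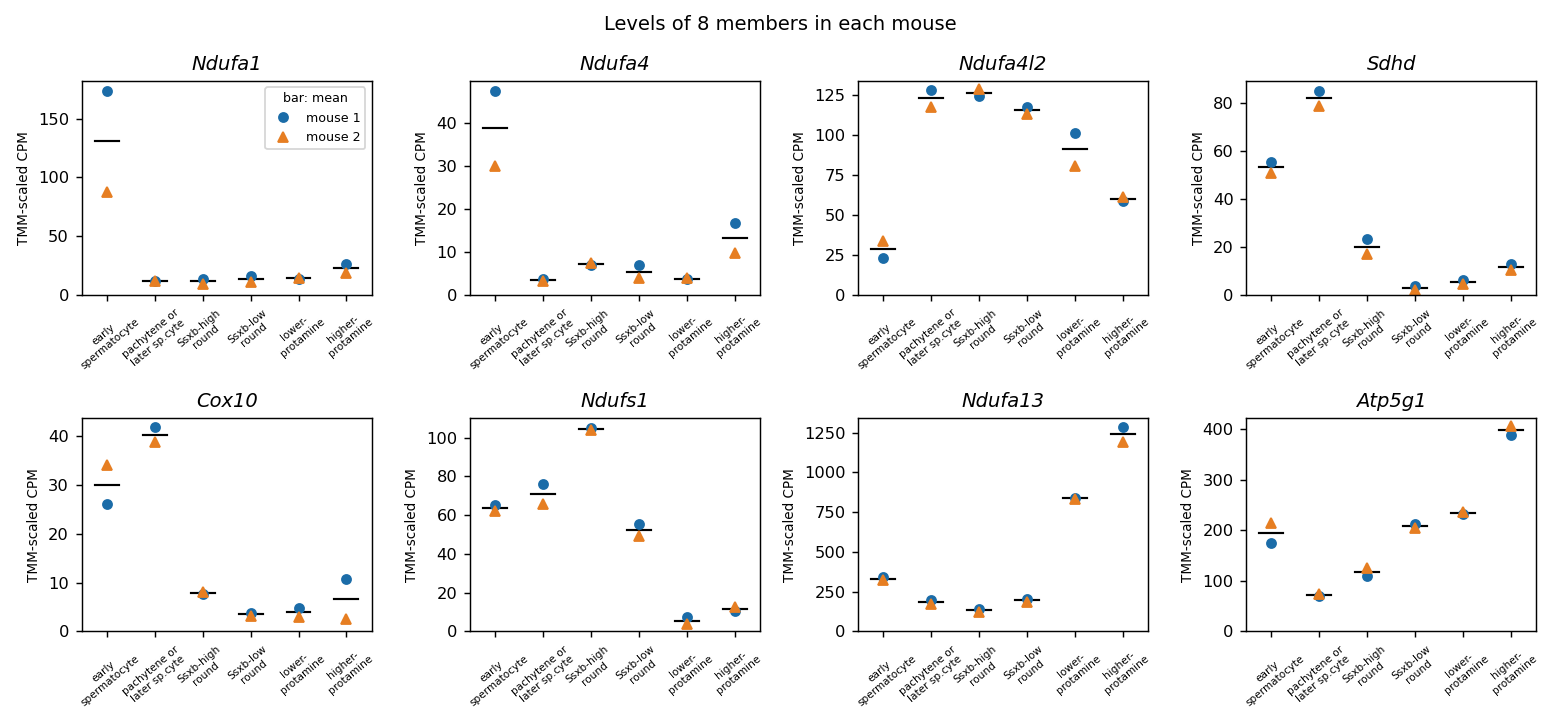
TMM-scaled CPM of 8 members in 6 germ cell clusters, circles for mouse 1, triangles for mouse 2 and bars for their mean, each panel with its own linear axis from 0. Ndufa1 and Ndufa4 are highest in early cells, Sdhd and Cox10 in pachytene or later cells, and Ndufa13 and Atp5g1, on this scale, in the higher-protamine cluster.

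Other members fell in this step too. Cox10, which makes the heme of complex IV, was at 26 and 34 in early spermatocyte-like cells, 41.8 and 38.8 in pachytene or later cells, 7.7 and 8 in the Ssxb-high round cluster, 3.88 and 3.19 in the Ssxb-low round cluster, 4.89 and 2.93 in the lower-protamine cluster and 10.7 and 2.61 in the higher-protamine cluster (-2.94 ± 0.20 SE, adjusted p = 1.39e-11). The single high value in the higher-protamine cluster was seen in mouse 1 alone. Ndufc2, an accessory subunit in the membrane arm of complex I, was at 174 and 177 in early spermatocyte-like cells, 109 and 97 in pachytene or later cells, 29.5 and 26.2 in the Ssxb-high round cluster, 13.5 and 11.7 in the Ssxb-low round cluster, 7.94 and 5.38 in the lower-protamine cluster and 18 and 16.3 in the higher-protamine cluster (-2.47 ± 0.12 SE, adjusted p = 8.2e-14). Both mice were high in spermatocytes and low in every spermatid cluster. Uqcrc2, a core protein of complex III, fell (log2 fold change -1.78 ± 0.11 SE, adjusted p = 3.22e-12). Of the complex I core subunits, which hold the iron-sulfur clusters and the flavin, Ndufs8 fell (log2 fold change -1.64), as did Ndufv1 (-0.33) and Ndufv2 (-0.24). With Leiden clusters these last values were -0.06 and -0.02 and lost the call, as they did without the Ssxb-high cluster (-0.32 and -0.25). The call of Ndufv1 was also lost with DESeq2 (-0.27) and that of Ndufv2 with no filter on low counts (-0.29), and Ndufv2 was not called over all clusters together.

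The gene with the largest rise was Ndufb11, the other X-linked member, at 3.32 and 0.85 in early spermatocyte-like cells, 0.665 and 0.683 in pachytene or later cells, 6.49 and 4.39 in the Ssxb-high round cluster, 6.16 and 6.55 in the Ssxb-low round cluster, 7.94 and 6.36 in the lower-protamine cluster and 10.7 and 5.87 in the higher-protamine cluster (3.07 ± 0.37 SE, adjusted p = 1.74e-07). Unlike Ndufa1 it was low in both spermatocyte clusters and higher in all spermatid clusters. It rests on 289 UMIs and shares 3' sequence with a copy, Gm6444. Ndufa1 was not called in this step, with levels that stayed between 9.47 and 16.2 in the round clusters. Atp5g1 rose by 1.12 ± 0.12 SE, adjusted p = 2.15e-08 and Atp5s by 0.78. Ndufa4 was called higher (0.80), but the call was lost in 7 of the 12 fits that left out 1 sum (0.30 to 0.59), namely without either pachytene or later sum, either Ssxb-high sum, either early sum or the Ssxb-low sum of mouse 1. It was also lost by library size (0.58), with upper quartile scaling (0.55), without protamines (0.52), without doublets (0.51), with K = 10 (0.53) and without the Ssxb-high cluster (0.56). Thinned to 7000 UMIs per cell, the value was -0.18.

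The last comparison set elongating or condensing spermatids against round spermatids. Here 15 members were higher and 53 lower, against 30.5% and 36.7% of all genes (67.2% in all), with medians of -0.43 and -0.26. The members lay close to all genes in 2 other groupings. Without the Ssxb-high cluster in the round class the medians were -0.23 and -0.22, and with Leiden clusters -0.57 and -0.54. This step depends on the scaling. Protamine and transition protein genes took 6.78% and 17.3% of the UMIs in the lower- and higher-protamine clusters. By library size alone 1 member was higher and 82 were lower, against 19.0% and 59.5% of all genes, and the medians were -1.33 for the members and -1.14 for all genes. This scaling lowers all genes, so that only higher calls can turn, and 12 of the 15 did. Ndufa13, Ndufb7 and Atp5g1 were above 0 in all scalings. All 8 tested subunits counted with complex IV were called, 6 lower and 2 higher (Cox7a2 and Cox7a2l), and 6 of 8 assembly factors of complex I and 6 of 8 of complex IV fell. In complex V 5 of 17 fell and 5 rose.

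**Figure D5:**
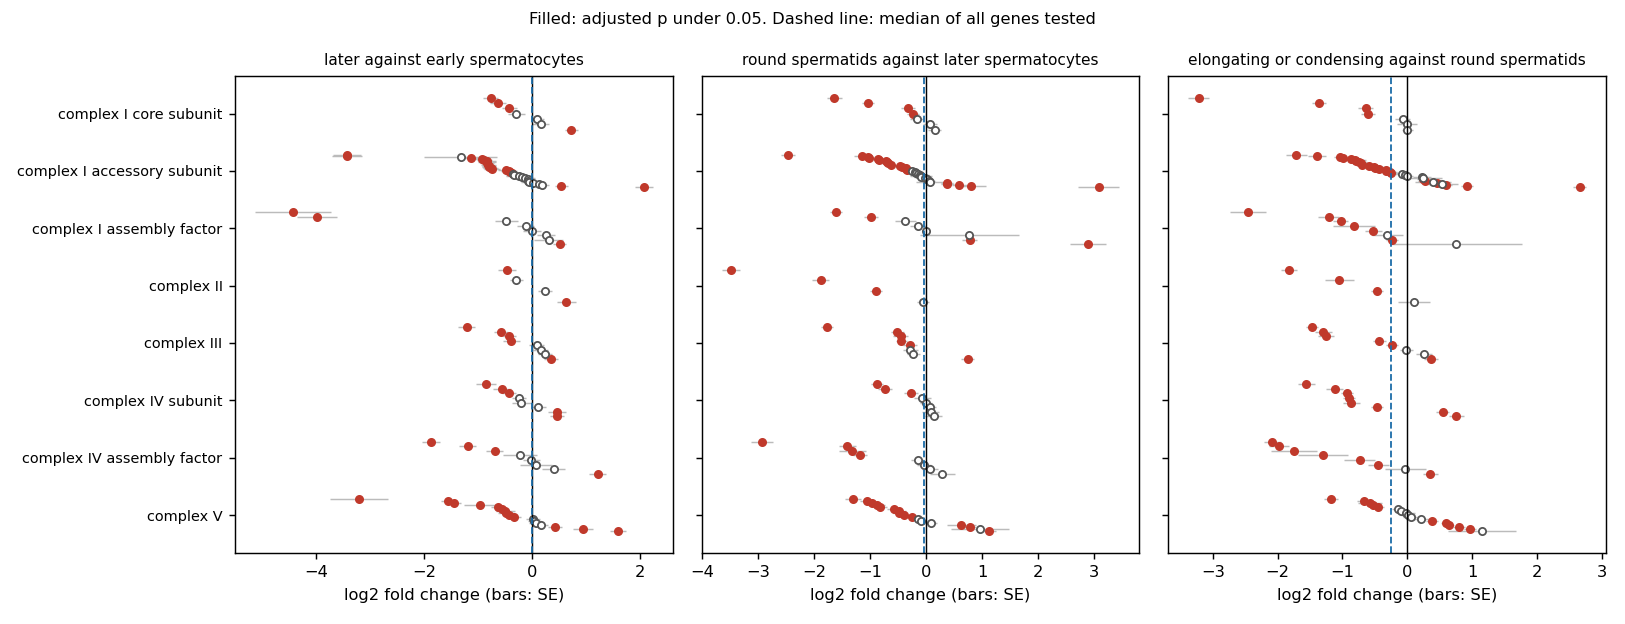
Log2 fold change of the 91 tested members by part in the 3 comparisons, with bars for the SE. Filled points have an adjusted p under 0.05 and the dashed line marks the median of all 14203 genes. Most filled points lie left of 0 in each panel, with Ndufa13 at 2.66 the point farthest to the right in the last one.

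Ndufa13, an accessory subunit of complex I that is also known as a cell death regulator, was at 339.8 and 322 in early spermatocyte-like cells, 195 and 175 in pachytene or later cells, 140.4 and 125 in the Ssxb-high round cluster, 206 and 186 in the Ssxb-low round cluster, 839 and 835 in the lower-protamine cluster and 1285 and 1193 in the higher-protamine cluster. Both elongating or condensing clusters lay above all other clusters in both mice (2.66 ± 0.10 SE, adjusted p = 4.07e-16), and the log2 fold change was 1.76 by library size alone. The rise from the lower- to the higher-protamine cluster is on the TMM scale. In plain CPM Ndufa13 was at 651 and 588 in bin 10, of mainly lower-protamine cells. It was at 654 and 620 in bin 11 and 612 and 511 in bin 12, both of mainly higher-protamine cells. The gene (chr8:69894180-69902558, GRCm38, minus strand) overlaps an intron of Yjefn3 on the same strand by the annotation and shares 3' sequence with Gm12389, which had 17 UMIs. Ndufb7, another accessory subunit, was at 325 and 298 in early spermatocyte-like cells, 185 and 170.4 in pachytene or later cells, 140.2 and 129 in the Ssxb-high round cluster, 150.0 and 138 in the Ssxb-low round cluster, 184 and 152 in the lower-protamine cluster and 413 and 416 in the higher-protamine cluster (0.92 ± 0.09 SE, adjusted p = 1.69e-08). On this scale only the higher-protamine cluster lay above the early cells, which in plain CPM were at 538 and 458 against 204 and 203. The lower-protamine cluster lay above the round clusters and overlapped with pachytene or later cells in TMM-scaled CPM, and by library size the call was lost at 0.02. Atp5g1 was at 175 and 214 in early spermatocyte-like cells, 70 and 73.6 in pachytene or later cells, 109 and 125 in the Ssxb-high round cluster, 212 and 205 in the Ssxb-low round cluster, 232 and 237 in the lower-protamine cluster and 389 and 405 in the higher-protamine cluster (0.96 ± 0.09 SE, adjusted p = 7.19e-09), and by library size the call was lost at 0.06. In plain CPM Atp5g1 was highest in early cells, at 289 and 328 against 192 and 198 in the higher-protamine cluster. Atp5g1 was lowest in pachytene or later cells and rose in both later steps, and it shares 3' sequence with 9 other genes. The other subunit c genes took other courses, since Atp5g3 was at 143 and 166 in early spermatocyte-like cells, 51.3 and 54.7 in pachytene or later cells, 30.4 and 25.4 in the Ssxb-high round cluster, 25.8 and 21.4 in the Ssxb-low round cluster, 22 and 20.1 in the lower-protamine cluster and 30.3 and 30.7 in the higher-protamine cluster, highest in early cells.

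Atp5e, the epsilon subunit of the ATP synthase, and Cox7a2l were called higher at 0.80 and 0.76, and were at -0.10 and -0.15 by library size. Cox7a2l has been described as a factor that joins complexes into supercomplexes, a role not examined in these mice. Cox7a2 and Uqcrq, the members with the most UMIs in complexes IV and III, were called higher at 0.55 and 0.36 and were at -0.36 and -0.54 by library size. For Uqcrq the call was also lost without the higher-protamine sum of mouse 1 (0.26) or the Ssxb-low sum of mouse 2 (0.30).

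Among the members that fell, Ndufs1, the largest core subunit of complex I, was at 65.3 and 62.3 in early spermatocyte-like cells, 75.9 and 65.7 in pachytene or later cells, 105 and 104 in the Ssxb-high round cluster, 55.2 and 49.4 in the Ssxb-low round cluster, 7.33 and 3.91 in the lower-protamine cluster and 10.7 and 12.4 in the higher-protamine cluster. It was highest in the Ssxb-high round cluster and then fell in both mice (-3.22 ± 0.16 SE, adjusted p = 1.02e-13). Ndufaf1, an assembly factor, fell (log2 fold change -2.46), Cox11 (log2 fold change -2.08) and Cox17, a copper chaperone of complex IV, (log2 fold change -1.98). Cox11 was at 31 and 35.4 in early spermatocyte-like cells, 80.8 and 74.7 in pachytene or later cells, 86 and 87.9 in the Ssxb-high round cluster, 57.9 and 54 in the Ssxb-low round cluster, 25.7 and 25.4 in the lower-protamine cluster and 9.54 and 11.7 in the higher-protamine cluster, high from pachytene or later cells to the round clusters and low on both sides. Sdha fell (log2 fold change -1.82 ± 0.12 SE, adjusted p = 2e-11), Sdhc (log2 fold change -1.05) and Sdhb (log2 fold change -0.46), and Sdhd was not called at levels of 6.11 and 4.4 in the lower- and 12.9 and 10.4 in the higher-protamine cluster. The value of Sdhc was 0.08 without the Ssxb-high cluster in the round class. Ndufs3 and Ndufs7 fell (log2 fold changes -0.61 and -0.64), whereas Ndufs8, Ndufv1 and Ndufv2 were not called. The Leydig marker list summed highest in the higher-protamine cluster, at 278 and 197 CPM over 9 markers, of which 2 and 1 were at 0. The sum was 28.4 to 113 CPM in the other germ cell clusters and 32930 and 38652 CPM in Leydig-like cells. Cyp2a12, a gene of this list, was also a leading gene of an elongating or condensing spermatid cluster among the Leiden clusters. The part of Leydig RNA in these levels was not tested.

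Paralogs among the members were compared over all stages. Cox4i1 was at 1101 and 1213 in early spermatocyte-like cells, 998 and 957 in pachytene or later cells, 647 and 584 in the Ssxb-high round cluster, 495 and 419 in the Ssxb-low round cluster, 331 and 327 in the lower-protamine cluster and 446 and 448 in the higher-protamine cluster, highest in early cells of both mice, while its paralog Cox4i2 had no UMI in any cell. Cox6a1 was the measured gene of its pair, at 439 and 381 in early spermatocyte-like cells, 304 and 254 in pachytene or later cells, 326 and 265 in the Ssxb-high round cluster, 347 and 284 in the Ssxb-low round cluster, 256 and 192 in the lower-protamine cluster and 147 and 104 in the higher-protamine cluster, and Cox6a2, the form of heart and skeletal muscle, had 9 UMIs. Cox7a1, the other muscle form, had 18 of its 40 UMIs in the 5 Leydig-like cells, and Cox7a2 was at 973 and 978 in early spermatocyte-like cells, 1118 and 994 in pachytene or later cells, 970.5 and 822 in the Ssxb-high round cluster, 924 and 784 in the Ssxb-low round cluster, 1206 and 1178 in the lower-protamine cluster and 1463 and 1285 in the higher-protamine cluster. Early cells were the highest for Cox6a1 in both mice. For Cox7a2 the higher-protamine cluster was the highest on this scale, but the lowest in plain CPM, at 723 and 627 against 1611 and 1501 in early cells. Cox4i1 fell in both later steps (log2 fold changes -0.88 and -0.47), and Cox6a1 (log2 fold change -0.86) in the last one. Without the Ssxb-high cluster in the round class the last value of Cox4i1 was -0.25 and not called. Ndufc1, the member of complex I with the most UMIs, was at 908 and 871 in early spermatocyte-like cells, 755 and 655 in pachytene or later cells, 678 and 535 in the Ssxb-high round cluster, 699.8 and 565 in the Ssxb-low round cluster, 706 and 542 in the lower-protamine cluster and 297 and 249 in the higher-protamine cluster, and was called lower in the last step (-0.59). It was not called in the others, where 6 of 25 alternatives called it lower in the first step, and 13 lower and 1 higher in the second, the mouse as a replicate block among them in both.

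Many calls between the spermatocyte clusters were weak, also outside the set of named members. Atp5a1 (log2 fold change -0.34) and Uqcrb (-0.39) lost the call in all 12 fits that left out 1 sum, and Ndufa8 (-0.37) in 11. Sdhc fell (log2 fold change -0.47), but the call was lost in 10 of 12 fits that left out 1 sum, every one except those of the lower-protamine cluster (-0.41 to -0.25). Ndufs3 fell (log2 fold change -0.42), and the call was lost in 8, without any early, pachytene or later or round sum (-0.30 to -0.27). Cox6a1 (-0.55) lost it without either early sum or the pachytene or later sum of mouse 2 (-0.44 to -0.27), Ndufs8 (-0.63) without the early sum of mouse 2 (-0.37) or the pachytene or later sum of mouse 1 (-0.48), and Cox7a2l (0.46) without the early sum of mouse 1 (0.34). The call of Cox7a2l was also lost with DESeq2 (0.18), by library size (0.21), with upper quartile scaling (0.33), thinned (0.28) and with Leiden clusters (0.09). Ndufs7 fell (log2 fold change -0.77 ± 0.14 SE, adjusted p = 7.38e-05). Sdha, Sdhb, Ndufs1, Ndufv1 and Ndufv2 were not called in this step. Of these, Sdhb and Ndufv1 were called lower in 6 of 25 alternatives, with the mouse as a replicate block among them. Without the early sum of mouse 2 the median log2 fold change was -0.08 for the members and 0.24 for all genes. Without the pachytene or later sum of mouse 1 these medians were -0.28 and 0.00, and without that of mouse 2 -0.16 and 0.09. Some calls of the later steps were weak too. From later spermatocytes to round spermatids Ndufa6 (0.37), Ndufa7 (0.37), Atp5l (0.63) and Ndufa5 (0.59) lost the call in several fits without 1 sum. The direction of Atp5l and of Ndufa7 turned in 1 such fit. In the last step Ndufa7 (0.24), Uqcrc1 (-0.24), Ndufaf3 (-0.24) and Ndufs6 (0.28) lost it in several.

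Other mitochondrial genes were described from lists chosen beside the members. Counts are given in the order of the 3 comparisons, where 25.5%, 37.3% and 30.5% of all genes were higher and 24.8%, 37.3% and 36.7% lower. Of 12 tested genes for proteins encoded by mitochondrial DNA none rose in any step, and 11, 12 and 4 fell, with median log2 fold changes of -1.44, -1.58 and -0.32. For 75 genes of the mitochondrial ribosome, 9, 10 and 18 rose and 38, 47 and 41 fell. For 17 genes of the citric acid cycle and pyruvate dehydrogenase, 6, 7 and 5 rose and 8, 6 and 11 fell. Of 17 import genes 2, 3 and 1 rose and 5, 9 and 11 fell, and of 29 further assembly factors 4, 6 and 9 rose and 12, 14 and 7 fell. Of 10 regulators 3, 4 and 2 rose and 3, 5 and 5 fell. In the last step the median log2 fold change of the regulators was -0.77. The 2 that rose there were Tfam (5.31 ± 0.14 SE, adjusted p = 3.69e-18) and Gabpb1, a subunit of an ETS factor complex (2.33 ± 0.16 SE, adjusted p = 3.62e-11). Counts of 3' ends do not tell transcript forms of a gene apart. Both genes were named after their values were seen.

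The mice differed in the same direction in the 6 large germ cell clusters. The summed CPM of the members in mouse 2 was 0.949 times that of mouse 1 in early cells, 0.961 times in pachytene or later cells and 0.880 to 0.889 times in the spermatid clusters. These ratios are of 1 animal to 1 animal and were not tested. Of members with at least 100 UMIs, 1 to 3 per cluster differed by more than 1.5 times, which is 1.28% to 4.69% of members against 3.51% to 7.43% of genes with as many UMIs. Atp5l, a small membrane subunit of the ATP synthase, had the largest difference in 4 clusters, for example 124 and 65.4 CPM in the lower-protamine cluster, and shares 3' sequence with 10 other genes. In all, 43 members share a stretch of 50 bases near the 3' end with another gene, so that reads from it may be uncounted or placed on a copy.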

How the data were processed

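Testis cells of 2 wild-type littermates were captured in droplets and the 3' ends of transcripts counted as UMIs. Per the submitters' processing notes, bcl2fastq 2.17.1.14 and Cell Ranger 2.0.0 were used. The authors deposited 1 matrix of raw UMI counts for both mice, made after reads of the deeper replicate were downsampled, with repeat elements among the rows. All 2552 cells, with medians of 17871 and 19184 UMIs, were kept.

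Cells were clustered on 27507 rows, without 295 rows of members and other mitochondrial lists (10 components, k-means with K = 9, scikit-learn 1.9.0), and clusters were named by markers raised at least 1.5 times. Scanpy 1.11.5 gave the diffusion order and 25 doublets, which were kept. Sums per mouse and cluster were tested with edgeR 4.0.16 quasi-likelihood (TMM factors 0.488 to 1.66, filter on low counts, no covariate), adjusted over 14203 genes. Contrasts set the mean of the clusters of 1 class against that of another, and the 3 comparisons share sums. The p-values measure the spread between 2 littermates. Sums of 1 mouse share an animal, and their deviations correlated at 0.0316 to 0.289 over genes. Scripts were tested on simulated data.

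The members, lists and tests were chosen with earlier results of these data known. Named members were the 5 highest and 5 lowest called in each comparison with 1 direction in both mice, X-linked members, complex II, core subunits of complex I, paralog sets and the member with the most UMIs in each complex. Cox15, Cox8b, Ndufaf5, Uqcr10, Atp5l, Atp5a1, Uqcrb, Ndufa8, Atp5k, Ndufa11, Uqcrc1, Ndufa5, Ndufa6, Ndufa7, Ndufaf3, Ndufs6, Tfam and Gabpb1 were named after their values were seen. Alternatives covered scaling, filters, DESeq2 1.42.0, clustering (Leiden among them), thinning, doublets and each sum left out. In the fits without 1 sum the filter on low counts and the TMM factors were made anew. Those fits held 14797 to 15385 genes, so a call lost there need not come from the missing sum alone. The Leiden classes held other cells than the main ones. There the early class was a cluster of 81 cells, 20 from mouse 1 and 61 from mouse 2. A Leiden cluster of 118 cells was named Sertoli-like and left out, though Tex101 and Dazl were among its leading genes. For 17 members no promoter sequence was used here, and the values of 1 member are not reported here.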

Additional observations from a re-analysis of the deposited data

How the results depend on the processing

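Between the spermatocyte clusters, members called higher numbered 7 with DESeq2 and 6 by library size alone, and members called lower numbered 25 with no filter on low counts. Round against later spermatocytes, 7 were called higher by library size alone and with upper quartile scaling, against 33.8% and 33.3% of all genes. The number was also 7 without protamines and transition proteins (33.2%), without doublets (32.6%) and with K = 10 (33.0%). With Leiden clusters it was 21, against 39.4% of 11135 genes. In the last comparison 1 was called higher and 82 lower by library size alone, and 5 higher with no filter. The median over cells of the members' share in pachytene or later cells was 2.64%, and without protamines the share in higher-protamine cells was 0.969%. Leaving out 1 sum gave 10 to 21 higher and 25 to 40 lower members in the first comparison, 5 to 11 and 48 to 69 in the second and 11 to 17 and 46 to 53 in the last. The main fit had more lower members in the first comparison (43) and fewer in the second (46) than any fit without 1 sum. Over the fits without 1 sum the members' median was -0.28 to -0.08, -0.67 to -0.30 and -0.47 to -0.40 in the 3 comparisons. That of all genes was 0.00 to 0.24, -0.35 to -0.06 and -0.32 to -0.23. The share of 1 mouse alone was 3.81 to 4.02%, 2.76 to 2.87%, 2.07 to 2.35%, 1.68 to 1.90%, 1.19 to 1.34% and 0.754 to 0.849% in the 6 clusters. With the mouse as a replicate block, the counts higher and lower were 13 and 50, 12 and 52, and 19 and 53. Of all genes 27.5% and 27.1%, 38.8% and 39.8%, and 31.3% and 37.8% were then higher and lower. In that fit 91 members differed over all clusters, so that the pairing moved no count by over 1.5 times.

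Of 61 calls of named members, 42 kept direction and significance in every one of the 25 alternatives that gave a value. The direction turned for Ndufa4 from spermatocytes to round spermatids when thinned (-0.18), and in the last comparison by library size alone for Atp5e (-0.10), Cox7a2 (-0.36), Cox7a2l (-0.15) and Uqcrq (-0.54), with no filter for Uqcrq (-0.058), and without the Ssxb-high cluster for Sdhc (0.081). Of 30 comparisons of named members that were not called, 28 were called in 1 or more alternatives, 7 of them in both directions. Apart from the scaling itself, the cause was not tested. The settings without the Ssxb-high or the lower-protamine cluster were chosen after seeing the data. Depth limits members such as Ndufaf6, with 30 UMIs. With 2 animals, differences between mice cannot be tested.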
